A study of Homo sapiens with 6 samples.

Results

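The transporters described here are ABC pumps that export drugs from cells, together with CFTR, the chloride channel of the same family, and ABCA12, a lipid transporter. They were chosen by name, as every probe set that the platform annotation pairs with 1 of 10 listed gene symbols and no other. Of the 10 genes, 9 had such a probe set, 1 each, among 32321 probe sets in all. These were ABCB1, ABCG2, ABCC1, ABCC2, ABCC3, ABCC4, ABCC5, CFTR and ABCA12. ABCC6 was not analysed here.

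Their expression was compared between DLD-1/DKK1 cells and the DLD-1/Mock line, with 3 arrays in each group and 6 in the series. DLD-1 is a human colorectal adenocarcinoma line with mutant APC which, as the study describes it, does not express DKK1 of its own. DLD-1/DKK1 cells carried a lentivirus from which doxycycline induces DKK1, a secreted antagonist of the Wnt co-receptors, and DLD-1/Mock cells carried a lentivirus with no ectopic gene. The labels' protocol gives a transduction that typically reached nearly all cells, with no figure for these dishes, and names no clone. Cells of both groups received doxycycline for a day before RNA was isolated, at 10 mg/ml in the labels and at the same figure in micrograms per ml in the methods. The dishes are called independent, but no source used here says whether they came from separate transductions, so that p-values measure the spread between dishes.

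ABC transporters are membrane proteins that use ATP to move substrates out of the cytosol. ABCB1 (P-glycoprotein), ABCG2 and several ABCC proteins lower the amount of chemotherapeutic agents within cells and are known for their part in multidrug resistance. CFTR is built on the same plan as the ABCC pumps but forms an ATP-gated channel, which carries chloride and bicarbonate across the epithelium of intestinal crypts. The study was concerned with genes that handle chemotherapeutic agents, and the comparison asks whether the RNA of the export machinery differed as well. In culture, the study reports, DKK1 did not change how sensitive DLD-1 and RKO cells were to oxaliplatin, irinotecan or fluorouracil.

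The start regions of CFTR and ABCA12 are shown because these were the transporters that differed most between the groups. They are RefSeq windows on GRCh38.p14, 250 bases before to 50 bases after a transcript start, written 5′ to 3′ on the strand of the gene. Capitals mark exact matches, on either strand, to 8 motifs. These are TATAAA for the TATA box, CCAAT for the box of that name, GGGCGG for the GC box and TGACGTCA for the cyclic AMP response element. The others are CACGTG for the E-box, TGACTCA for the AP-1 site, CTTTGA for the core of a TCF/LEF site and AGGTCA for the half-site of nuclear receptors. No marked match overlaps another in these windows.
CFTR, chr7:117479775-117480074, plus strand: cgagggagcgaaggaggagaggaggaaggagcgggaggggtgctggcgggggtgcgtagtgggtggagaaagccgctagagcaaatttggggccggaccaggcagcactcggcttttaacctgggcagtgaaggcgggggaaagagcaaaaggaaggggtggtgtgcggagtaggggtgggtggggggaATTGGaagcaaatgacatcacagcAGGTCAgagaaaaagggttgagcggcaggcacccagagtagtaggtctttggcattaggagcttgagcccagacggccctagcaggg
ABCA12, upstream start, chr2:215138577-215138876, minus strand: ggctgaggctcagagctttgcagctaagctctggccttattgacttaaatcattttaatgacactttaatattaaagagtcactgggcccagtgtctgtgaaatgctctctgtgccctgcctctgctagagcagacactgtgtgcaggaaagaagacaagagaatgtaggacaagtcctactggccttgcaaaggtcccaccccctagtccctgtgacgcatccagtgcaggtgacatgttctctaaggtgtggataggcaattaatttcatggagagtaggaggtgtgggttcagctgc
ABCA12, downstream start, chr2:215032037-215032336, minus strand: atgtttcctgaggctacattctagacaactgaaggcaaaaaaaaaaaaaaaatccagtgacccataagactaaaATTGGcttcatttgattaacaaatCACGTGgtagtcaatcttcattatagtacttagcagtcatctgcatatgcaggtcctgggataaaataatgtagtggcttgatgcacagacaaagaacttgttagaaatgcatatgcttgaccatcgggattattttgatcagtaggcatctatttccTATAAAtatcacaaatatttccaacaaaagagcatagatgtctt

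The CFTR window held a CCAAT box in reverse, which begins at base -61 from the start, and an AGGTCA half-site at base -37. CCAAT was found in 34.6% and AGGTCA in 13.8% of the 35116 windows of all genes. None of the 8 motifs was found in the upstream window of ABCA12. The downstream window held a reverse CCAAT at base -176, an E-box at base -152 and TATAAA at base 7, motifs found in 34.6%, 7.26% and 11.5% of all windows. CTTTGA, found in 12.9% of all windows, was in neither gene and in 1 of the 15 windows of 8 listed genes, which belongs to ABCB1. The array does not tell the starts of ABCA12 apart, and a match of letters does not show that a factor binds.

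DKK1 itself was examined first, as a check of the labels. Its log2 expression was 12.30, 12.38 and 12.36 in DLD-1/DKK1 and 5.15, 5.74 and 5.01 in DLD-1/Mock. The log2 fold change of 7.05 (SE 0.18) passed (limma adjusted p = 0.00015). Mock 2, the second DLD-1/Mock array, stood apart from the rest. Its correlations with the other 5 arrays over all probe sets were 0.9953 to 0.9969, against at least 0.9973 for pairs among these 5, and it was the lowest DLD-1/Mock array for 7 of the 9 transporters and the highest for 1. Values without it are therefore given for each transporter. Most epithelial markers were bright, with mean log2 values of 12.88 in DLD-1/DKK1 and 12.82 in DLD-1/Mock for EPCAM. Those of CDX2 were 10.62 in DLD-1/DKK1 and 10.56 in DLD-1/Mock, while KRT20 lay low at 5.60 in DLD-1/DKK1 and 5.51 in DLD-1/Mock. CDH17, an intestinal cadherin, had the smallest p of the 9 epithelial markers, with a log2 fold change of 0.18 that did not pass (limma adjusted p = 0.325). Of these 9 markers 6 were above 0 and 3 below, against 15168 above and 17153 below among all probe sets. The groups did not overlap for 5, against 16.5% of all probe sets. CDH17 and VIL1 were higher and KRT8, KRT18 and CDX1 lower in DLD-1/DKK1. The log2 fold changes of the lower ones were -0.11, -0.08 and -0.09. The means of the 7 leukocyte markers measured were 4.34 to 7.35, with PTPRC lowest at 4.34 in both groups, and those of the 9 fibroblast and endothelial markers were 4.39 to 7.45. No marker of either list passed in limma. CD14 and CD68, which are not limited to leukocytes, had log2 fold changes of -0.27 and -0.26 with an unadjusted p under 0.05 (limma adjusted p = 0.462 and 0.345), and their part in the results below was not tested.

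None of the 9 transporters passed an adjusted p of 0.05 in limma, and 2 had an unadjusted p under 0.05, CFTR and ABCA12. That count was 3 after each array was centred on its median, when 3702 of all probe sets were under it, against 2984 as deposited. Over all probe sets 28 passed (0.0866%), 12 higher and 16 lower in DLD-1/DKK1, or 10 and 7 after each array was centred on its median, and 9.23% had an unadjusted p under 0.05. The arrays of the groups did not overlap for 3 transporters, CFTR, ABCB1 and ABCA12, against 16.5% of all probe sets. Ranked by p among the 32321 probe sets, ABCA12 was at place 39 and CFTR at place 57. The genes were listed with earlier results of these data known, so these counts and places are no separate evidence. The median log2 fold change of the transporters was 0.04, with 7 above 0 and 2 below, and that of all probe sets was -0.01.

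CFTR was higher in every DLD-1/DKK1 array than in any DLD-1/Mock array. Its log2 expression was 11.13, 11.08 and 11.10 in DLD-1/DKK1, against 10.80, 10.79 and 10.83 in DLD-1/Mock. The closest arrays of the groups were 0.25 apart, while the SD within a group was 0.02 in both. The mean was 11.10 ± 0.02 in DLD-1/DKK1 and 10.81 ± 0.02 in DLD-1/Mock (SD, n = 3 each), and the log2 fold change of 0.30 (SE 0.04) is a 1.23-fold difference with a 95% interval of 1.15-fold to 1.31-fold. The limma adjusted p of 0.0808 did not reach the threshold, and the two-sided exact permutation p was 0.1, the smallest that 3 arrays against 3 allow. CFTR did pass when only annotated probe sets were tested (limma adjusted p = 0.0256), when only those above the median brightness were (0.0288), with a trended and robust prior (0.027) and, barely, with array weights (0.0498). It did not pass with any array left out, where the log2 fold change was 0.28 to 0.31 and the limma adjusted p 0.183 to 0.396. Without Mock 2 the log2 fold change was 0.29.

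ABCA12, which loads lipids into the lamellar granules of skin keratinocytes and is not a classical drug pump, was lower in DLD-1/DKK1. Its log2 expression was 5.73, 5.72 and 5.61 in DLD-1/DKK1, against 6.10, 6.20 and 6.24 in DLD-1/Mock. All DLD-1/DKK1 arrays lay below all DLD-1/Mock arrays, with a gap of 0.37 between the closest. The mean was 5.69 ± 0.07 in DLD-1/DKK1 and 6.18 ± 0.07 in DLD-1/Mock (SD, n = 3 each). The log2 fold change was -0.49 (SE 0.06), which corresponds to 0.71 of the DLD-1/Mock value, with an interval of 0.646 to 0.781. This was the largest difference among the 9 transporters, and it did not pass (limma adjusted p = 0.0665, exact permutation p = 0.1). With annotated probe sets only it passed (limma adjusted p = 0.0161). It did not with any array left out, where the log2 fold change was -0.53 to -0.45 and the limma adjusted p 0.177 to 0.27. Without Mock 2 the log2 fold change was -0.49.

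The ABCA12 probe set was dim. The 350 probe sets of olfactory receptors, a family not expected in colon and taken here only to describe the lower end of the scale, had mean log2 values of 4.12 to 6.05 between their 5th and 95th percentiles. The DLD-1/DKK1 mean of ABCA12 lay within this range and the DLD-1/Mock mean a little above it. It was therefore not shown that the probe set was above background in DLD-1/DKK1, and near background the array values understate a difference in transcripts. The genes whose values followed those of ABCA12 most closely over the 6 arrays were ERVMER34-1, VGLL1 and CD177. After each gene was centred on its median, their mean absolute distances from ABCA12 were 0.042, 0.048 and 0.051 log2 units. Their log2 fold changes were -0.50, -0.45 and -0.51, and of these only that of ERVMER34-1 passed (limma adjusted p = 0.0417). The genes were picked for closeness over these same arrays, so a fold change near that of ABCA12 was fixed by the choice and is no separate evidence.

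**Figure D1:**
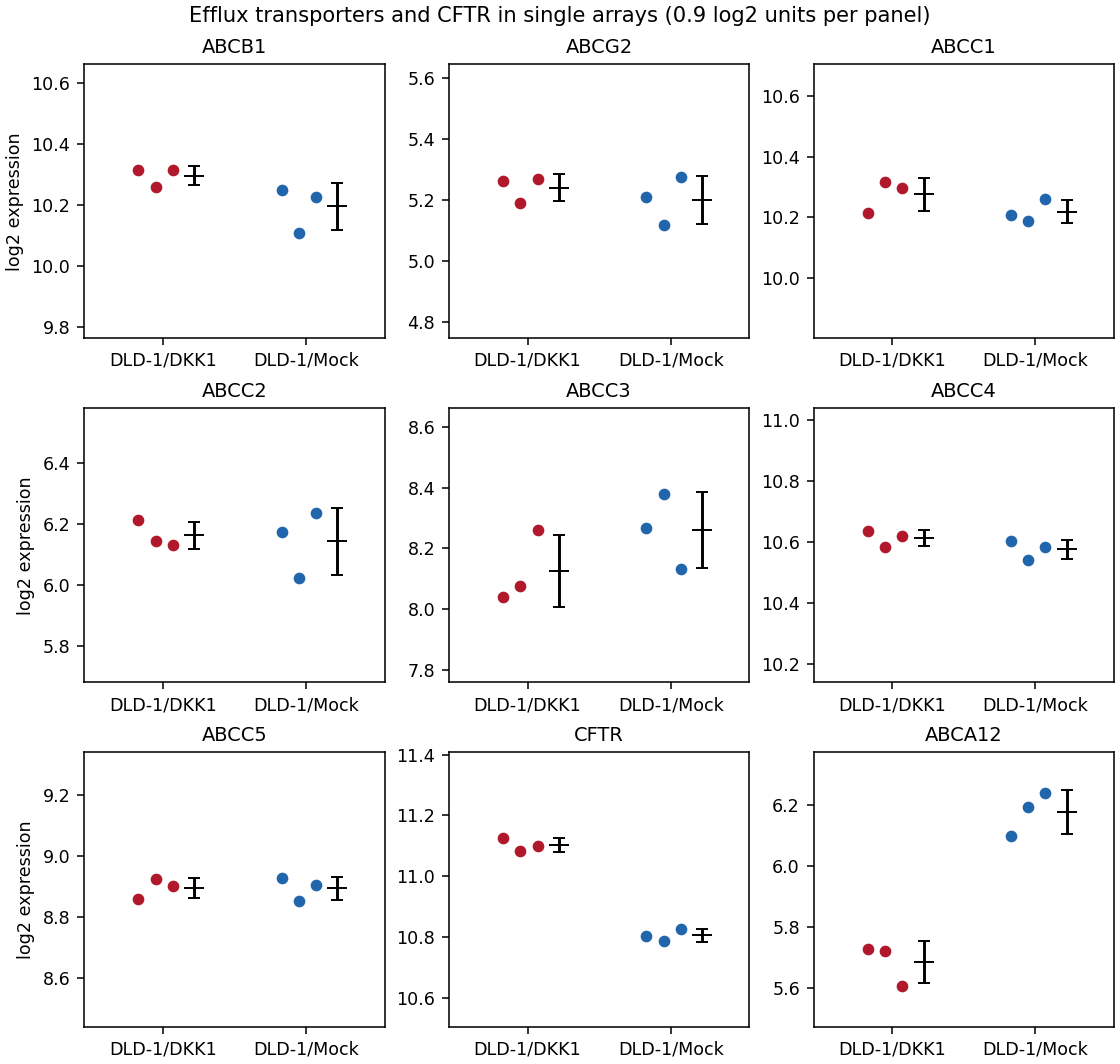
Log2 expression (vertical axis, the same span of 0.9 units in each panel) of the 9 transporters in single DLD-1/DKK1 (red points) and DLD-1/Mock (blue points) arrays, with black marks for the group mean ± SD (n = 3 each). The groups are clearly apart for CFTR, with a gap of 0.25, and ABCA12, with a gap of 0.37. They lie next to each other for ABCB1, with a gap of 0.0086, and overlap for the 6 others.

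ABCB1 and ABCG2, the pumps of hydrophobic drugs and of camptothecins such as topotecan, had log2 fold changes closer to 0. ABCB1 exports taxanes, anthracyclines and many other hydrophobic compounds. Its log2 expression was 10.31, 10.26 and 10.32 in DLD-1/DKK1, against 10.25, 10.11 and 10.23 in DLD-1/Mock. The groups did not overlap, but the closest arrays were only 0.0086 apart. The log2 fold change was 0.10 (SE 0.05) with a 95% interval of -0.02 to 0.22 (limma adjusted p = 0.585), and 0.06 without Mock 2, the lowest of the 6 arrays. ABCB1 was bright, at percentile 86.3 of all probe sets, and a difference above 1.17-fold lies outside the interval for the values as deposited. With each array centred on its median the log2 fold change was 0.15 (SE 0.06; limma adjusted p = 0.421). The phospholipid transporter ABCB4, named here as a close relative of ABCB1 with a probe set of its own, had a log2 fold change of 0.05. Its means of 5.64 in DLD-1/DKK1 and 5.60 in DLD-1/Mock lay within the range of the olfactory receptors. Neither the expression of ABCB4 nor a difference in it could thus be shown.

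ABCG2 carries topotecan, the active metabolite of irinotecan and urate. Its log2 expression was 5.26, 5.19 and 5.27 in DLD-1/DKK1, against 5.21, 5.12 and 5.27 in DLD-1/Mock, and the groups overlapped. The log2 fold change was 0.04 (SE 0.05; limma adjusted p = 0.816) and turned to -0.000608 without Mock 2. With a mean of 5.22, at percentile 27.4 of all probe sets, ABCG2 lay within the range of the olfactory receptors. Neither its expression in these cells nor a difference in it could be shown at this brightness.

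The ABCC pumps export glutathione, glucuronide and sulfate conjugates along with unconjugated drugs. ABCC1, which lies in the basolateral membrane of epithelia, had log2 values of 10.21, 10.32 and 10.30 in DLD-1/DKK1 and of 10.21, 10.19 and 10.26 in DLD-1/Mock. The groups overlapped, and the log2 fold change was 0.06 (SE 0.05; limma adjusted p = 0.707), or 0.04 without Mock 2. ABCC4, which also transports cyclic nucleotides and prostaglandins, had log2 values of 10.64, 10.59 and 10.62 in DLD-1/DKK1 and of 10.60, 10.54 and 10.58 in DLD-1/Mock. Its log2 fold change was 0.04 (SE 0.04) and 0.02 without Mock 2, and it did not pass (limma adjusted p = 0.764). Both genes were bright, at percentiles 86.3 and 89.1, and their 95% intervals reached 1.12-fold and 1.10-fold at the upper end. These ends hold for the values as deposited. Centring each array on its median gave log2 fold changes of 0.11 (SE 0.06) for ABCC1 and 0.09 (SE 0.05) for ABCC4.

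ABCC5, an exporter of cyclic nucleotides and of fluoropyrimidine monophosphates, gave the smallest difference of the 9. Its log2 expression was 8.86, 8.93 and 8.90 in DLD-1/DKK1, against 8.93, 8.85 and 8.90 in DLD-1/Mock. The means were both 8.89, and the log2 fold change was 0.00 (SE 0.04) with an interval of -0.10 to 0.10 (limma adjusted p = 0.998), or -0.02 without Mock 2. A difference larger than 1.07-fold in either direction lies outside this interval, which holds for the values as deposited. With each array centred on its median the log2 fold change of ABCC5 was 0.05 (SE 0.05; limma adjusted p = 0.663).

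ABCC3 varied more between dishes in both groups, and ABCC2 did so in DLD-1/Mock only, with an SD of 0.11 against 0.04 in DLD-1/DKK1. ABCC3, a basolateral exporter of glucuronides and bile salts, had log2 values of 8.04, 8.08 and 8.26 in DLD-1/DKK1 and of 8.27, 8.38 and 8.13 in DLD-1/Mock. The DLD-1/DKK1 array at 8.26 and the DLD-1/Mock array at 8.13 lay across each other, and the SD of 0.12 in DLD-1/Mock was the highest of any transporter in either group. The log2 fold change was -0.13 (SE 0.08) with an interval of -0.34 to 0.07 (limma adjusted p = 0.637), or -0.07 without Mock 2. It was the other transporter below 0 besides ABCA12. ABCC2, the apical exporter of bilirubin glucuronides, had log2 values of 6.21, 6.14 and 6.13 in DLD-1/DKK1 and of 6.17, 6.02 and 6.24 in DLD-1/Mock. These overlapped. The log2 difference was 0.02 (SE 0.06), or -0.04 without Mock 2, and it did not pass (limma adjusted p = 0.937). The mean of 6.15 was just above the range of the olfactory receptors.

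Taking the 7 transporters other than CFTR and ABCA12, the log2 fold changes of the values as deposited lay between -0.13 and 0.10. Their 95% intervals lay between -0.34 and 0.22. The limma adjusted p was 0.585 to 0.998. Of the 9 transporters, 6 were above the median brightness of all probe sets. Probe sets differ in how well they bind their target, so the brightness of 1 gene says little of its abundance against another.

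**Figure D2:**
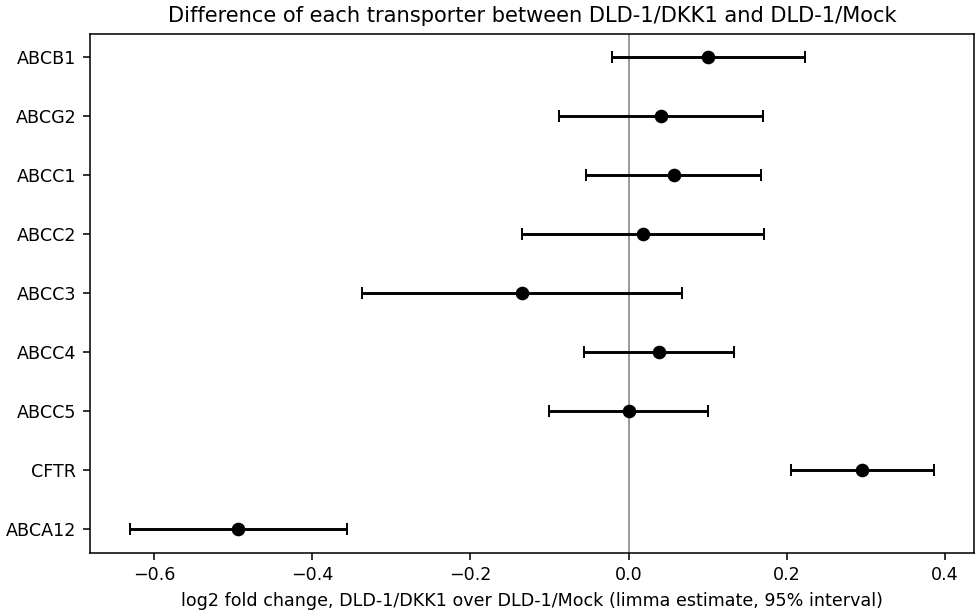
Differences between DLD-1/DKK1 and the DLD-1/Mock line in log2 units (horizontal axis, positive where DLD-1/DKK1 is higher), with a point per transporter for the limma estimate and a line for the 95% interval (n = 3 each). The intervals of CFTR (0.21 to 0.39) and ABCA12 (-0.63 to -0.36) leave out 0, and those of the 7 other genes include it.

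The rest of the ABC family was set beside these transporters. Of 36 other ABC genes measured, 0 passed in limma and 3 had an unadjusted p under 0.05, against 9.23% of all probe sets. This count of 3 was 1 without the second DLD-1/DKK1 or the first DLD-1/Mock array, and 4 among annotated probe sets and with array weights. The median log2 fold change was -0.01, with 17 above 0 and 19 below. The 3 were ABCD3, a carrier of fatty acids into peroxisomes (0.14; limma adjusted p = 0.443), ABCA7, a lipid transporter (-0.16; limma adjusted p = 0.499), and ABCB6, a porphyrin transporter (-0.19; limma adjusted p = 0.532). All their log2 fold changes were thus nearer 0 than those of CFTR and ABCA12, since the 36 genes ranged from -0.19 to 0.14. Only 13 of the 36 were above the median brightness of all probe sets, and their means ran from 4.32 to 11.04. For those within the range of the olfactory receptors, a value near 0 does not show that transcripts were unchanged. The groups did not overlap for 9 of the 36, 2 higher and 7 lower in DLD-1/DKK1, against 16.5% of all probe sets. In the 16 sterol and lipid transporters, to which ABCA12 is related, the median was -0.02. The groups did not overlap for 3 of these 16, all lower in DLD-1/DKK1. Means of the 16 ran from 4.32 to 8.79, so that some lay within the range of the olfactory receptors.

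Drug transporters outside the family gave 0 of 23 past the threshold in limma. An unadjusted p under 0.05 was found for 5, 2 higher and 3 lower, against 9.23% of all probe sets. The median log2 fold change was -0.05. The groups did not overlap for 8 of the 23, 3 higher and 5 lower in DLD-1/DKK1, against 16.5% of all probe sets. The count of 5 was 3 without the second DLD-1/DKK1 array, 6 after median centring and 7 without the first DLD-1/Mock array. SLCO1B3, an uptake carrier of anionic drugs, averaged 10.37 in DLD-1/DKK1 and 10.09 in DLD-1/Mock, a log2 difference of 0.29 with SE 0.07 (limma adjusted p = 0.398), close in size to CFTR. ATP7A, a copper pump, had 0.18 and SLC22A2, an organic cation carrier, had -0.24, and neither passed (limma adjusted p = 0.462 and 0.398). The means of SLC22A2, 5.04 in DLD-1/DKK1 and 5.27 in DLD-1/Mock, lay within the range of the olfactory receptors, so that neither its expression nor a difference in it could be shown. Among 14 regulators that control efflux genes, such as AHR, 0 passed in limma. An unadjusted p under 0.05 was found for 0 of the 14, against 9.23% of all probe sets, and with so few genes this is no result about them. Of 17 regulators listed, 3 were not measured. Their log2 fold changes were -0.05 to 0.13, with a median of 0.03. The count by unadjusted p was 3 after median centring, when 3702 of all 32321 probe sets were under it. It was 1 with a trended and robust prior, with array weights and without Mock 2.

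Partners of CFTR and other proteins of intestinal ion transport showed no shift like that of CFTR. Of 22 measured, 0 passed in limma and 3 had an unadjusted p under 0.05, against 9.23% of all probe sets. The median log2 fold change was -0.01, with 11 above 0 and 11 below. The count of 3 was 0 without the first DLD-1/DKK1 array and with the replicate number as a block. It was 1 without the second DLD-1/DKK1 or the first DLD-1/Mock array, and 2 without the third array of either group. After median centring, among annotated probe sets and with array weights it was 4. The groups did not overlap for 8 of the 22, 4 higher and 4 lower in DLD-1/DKK1, against 16.5% of all probe sets. The 3 genes, each with a negative log2 fold change, were KCNQ1 (-0.12; limma adjusted p = 0.483) and its subunit KCNE3 (-0.13; limma adjusted p = 0.538), a basolateral potassium channel whose current supports chloride secretion through CFTR, and the chloride transporter SLC26A9 (-0.18; limma adjusted p = 0.533), whose means of 5.35 in DLD-1/DKK1 and 5.52 in DLD-1/Mock lay within the range of the olfactory receptors. The chloride importer SLC12A2, which supplies CFTR from the basolateral side, had log2 values of 12.95, 12.96 and 12.95 in DLD-1/DKK1 and of 12.89, 12.88 and 12.86 in DLD-1/Mock. Its log2 fold change was 0.08 (limma adjusted p = 0.568), and it was named here after its values were seen. NHERF1, a scaffold that binds the end of CFTR, had -0.03 and was likewise named afterwards.

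**Figure D3:**
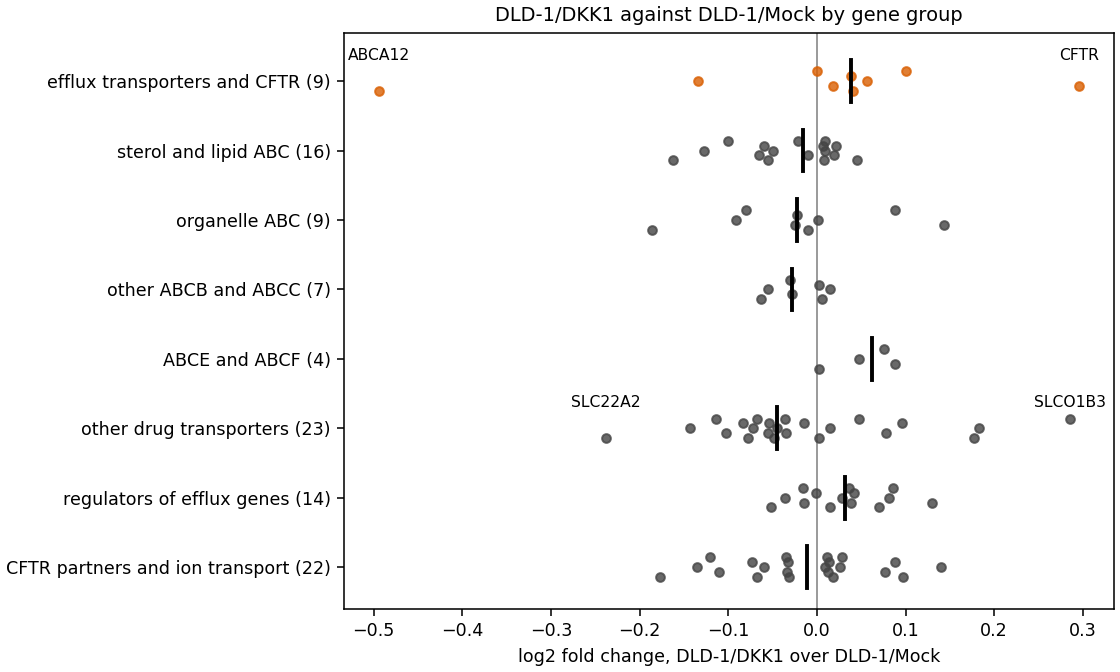
Log2 fold change (horizontal axis, positive where DLD-1/DKK1 is higher than DLD-1/Mock) of the 9 transporters (orange) and the measured genes of 7 other groups (grey), with a point per gene, a bar for the group median and the number of genes in brackets. The groups are sterol and lipid ABC, organelle ABC, other ABCB and ABCC, ABCE and ABCF, other drug transporters, regulators and CFTR partners, and among the genes drawn ABCA12 at -0.49 and CFTR at 0.30 lie farthest from 0.

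**Figure D4:**
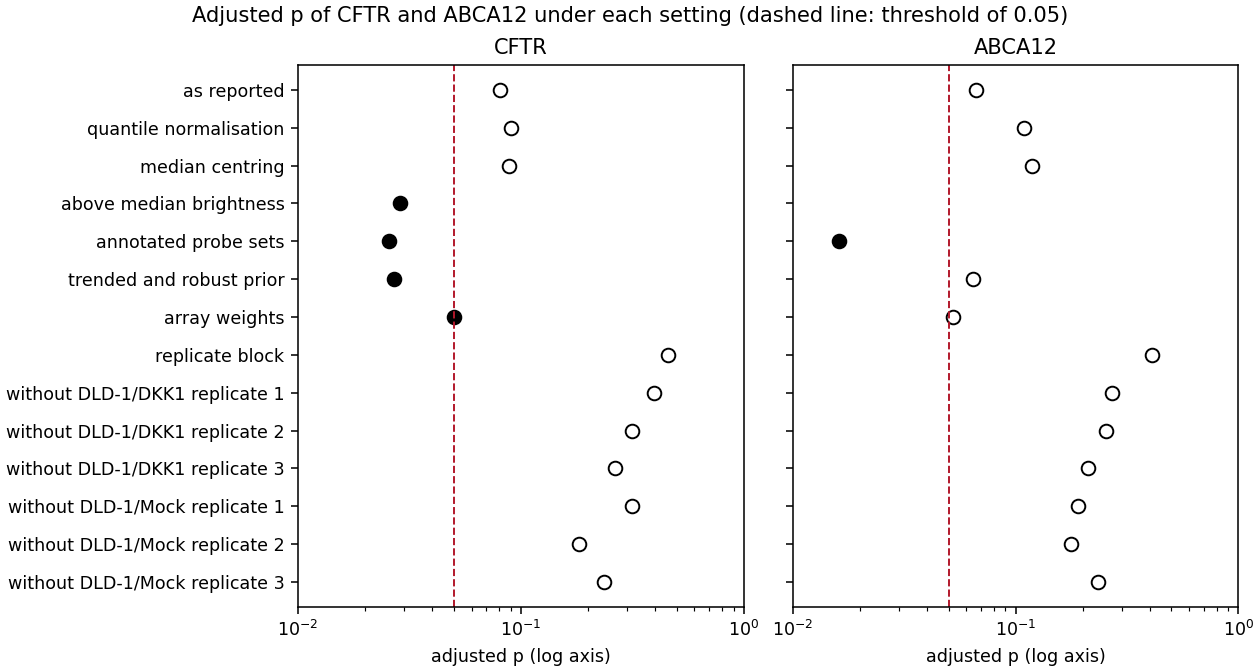
Limma adjusted p (horizontal log axis) of CFTR and ABCA12 for the fit as reported and under each alternative, with filled points below the threshold of 0.05 (dashed line) and open points above it. CFTR passes in 4 of 13 alternatives and ABCA12 in 1 of 12, the filter on brightness having removed ABCA12.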

How the data were processed

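Each of 6 dishes gave 1 Affymetrix Human Gene 1.0 ST array. The authors made the deposited log2 values from the raw scans by robust multichip averaging in the affy package, of which no version is stated. That step brings the arrays towards a common scale, so a shift shared by most transcripts can be lost, and it compresses differences of dim probe sets. The deposited arrays still differed in their medians, 6.79, 6.76 and 6.81 in DLD-1/DKK1 and 6.82, 6.86 and 6.82 in DLD-1/Mock. All DLD-1/DKK1 medians were the lower ones, so centring on the medians moves every log2 fold change upwards. The source of this offset was not tested. Precision is limited by the number of arrays.

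Of 32321 probe sets, 19158 had 1 gene name, 1388 several and 11775 none. Names were updated through the gene number to a GRCh38.p14 gene table (19128 matched). Samples were grouped by title. All probe sets were fitted with limma 3.58.1 (lmFit, eBayes) in R 4.3.3 with DLD-1/Mock as the baseline, two-sided, with Benjamini-Hochberg adjustment over all probe sets and a threshold of 0.05. SE values are moderated, with 4 residual and 2.56 prior degrees of freedom. Single values also had an exact permutation test. The steps were tested on simulated data.

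The members and gene lists were chosen with earlier results of these data known. By rule, all members were named, and from each other list up to 3 genes with the smallest p under 0.05 before adjustment. The rule also lists 1 gene by name that is not reported here. For genes with several probe sets the brightest counted. Promoter sequences are from RefSeq, with windows for 8 of the 10 listed genes. The range of olfactory receptors was chosen after the values were seen. As alternatives, each array was left out, arrays were weighted, quantile-normalised or centred on their medians, dim or unnamed probe sets were removed, the prior was trended and robust, and the replicate number was a block. Figures were drawn with matplotlib 3.10.9.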

Additional observations from a re-analysis of the deposited data

How the results depend on the processing

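CFTR and ABCA12 kept their direction in all alternatives run on them, 13 and 12, with log2 fold changes of 0.27 to 0.35 and -0.53 to -0.44. This direction was largely fixed, since their groups did not overlap and filters and priors leave a fold change as it is. ABCB1, ABCC1, ABCC3 and ABCC4 kept theirs too. ABCC5 turned to -0.011 after quantile normalisation and -0.015 with array weights, and ran from -0.020 to 0.018 with 1 array left out. ABCC2 turned to -0.010 with array weights and ran from -0.042 to 0.065, and ABCG2 from -0.000608 to 0.078, with 1 array left out.

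The number of transporters past the threshold, 0 as reported, was 1 above the median brightness, 2 among annotated probe sets, 1 with a trended and robust prior and 1 with array weights. It stayed at 0 after quantile normalisation and median centring and with each array left out. Over all probe sets 28 passed, and 17 did after median centring, 66 above the median brightness, 98 among annotated probe sets, 53 with a trended and robust prior, 59 with array weights and 2 to 6 with 1 array left out, the 6 without Mock 2. The filters test fewer probe sets and the last setting has fewer arrays, and for the others the cause was not tested. The other ABC genes, drug transporters, regulators and CFTR partners stayed at 0 in every setting.

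With the replicate number as a replicate block, 1 probe set passed in all, DKK1, and no transporter (limma adjusted p = 0.456 for CFTR and 0.411 for ABCA12). The arrays share only a number. The deviations of same-numbered arrays from their group means correlated at 0.10, 0.0082 and -0.14 over all probe sets. No DLD-1/DKK1 array correlated best with its own number, and of the DLD-1/Mock arrays only the first did.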
